A study of Mus musculus with 15 samples.

Results

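Src family kinases phosphorylate the first substrates of the T cell receptor, and the genes described here are 5 of these kinases (Src, Lck, Fyn, Yes1 and Fgr) together with 5 genes whose products set their activity (Csk, Pag1, Ptprc, Ptpn6 and Ptpn22). They were listed by gene name, at a time when earlier results of these data were known, and each matched a single identifier among the 55421 genes in the table. All 10 had at least 1 TPM in at least 3 libraries and were tested among 12800 such genes. TPM gives each gene's share of all message molecules, with length accounted for, on a scale with the same total in each library.

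RNA was measured in 15 poly(A) RNA-seq libraries of mouse CD4 T cells, 3 in each of 5 groups. Treg cultures of wild-type cells received the compound Srci1 or DMSO. TH17 cultures were wild-type cells with Srci1, cells from mice labelled STAT3-fl/fl CD4-cre with DMSO (STAT3 KO), or wild-type cells with DMSO. All cultures began from sorted naive CD4 T cells of spleen and lymph node, which were kept on plates coated with anti-CD3 (2 μg/ml) and anti-CD28 (1 μg/ml) in the presence of antibodies against IFNγ and IL-4. TH17 medium held TGFβ at 2.5 ng/ml, IL-1β, IL-6 and IL-23, and Treg medium held IL-2 and TGFβ at 0.5 ng/ml or another stated amount. Srci1, known here only by that name and given without a concentration, was added at 24 h, and RNA was taken on day 5. The Cre is driven by Cd4, no group carries the Cre without floxed Stat3, and Treg and TH17 cultures differ in cytokines as well as in cell type.

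Src family kinases are held inactive when a tyrosine near the C-terminus is phosphorylated and folds back onto the kinase's own SH2 domain. Csk places that phosphate and is brought to the membrane by the adaptor Pag1, while the receptor phosphatase CD45, encoded by Ptprc, removes it. Ptpn22 binds Csk and removes the activating phosphate of Lck and Fyn, and Ptpn6 (SHP-1) also dampens signals close to the receptor. In T cells Lck and Fyn are the main kinases of the family, and Fgr is best known from myeloid cells.

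The tail that Csk acts on is shared by all 5 kinases, and it is shown because it is the site where these kinases and their regulators meet. The coding sequences of the tails are given 5′ to 3′ from GENCODE M21 transcripts (GRCm38), ending with the last codon before the stop, with the codon of the regulatory tyrosine in capitals.
Src: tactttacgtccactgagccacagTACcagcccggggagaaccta
Lck: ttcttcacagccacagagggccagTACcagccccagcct
Fyn: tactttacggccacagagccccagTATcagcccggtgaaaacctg
Yes1: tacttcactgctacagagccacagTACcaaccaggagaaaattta
Fgr: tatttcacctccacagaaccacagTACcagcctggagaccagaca
The Lck tail ended 39 bases after the start of the stretch, and those of the other kinases after 45 bases. Fyn used the codon TAT where the other 4 kinases used TAC.

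The label of the knockout was checked first. Stat3 stood at 33.53, 38.44 and 30.74 TPM in STAT3 KO libraries, against 129.68, 132.94 and 99.78 TPM in wild-type TH17 libraries with DMSO (log2 fold change -1.78, limma adjusted p = 3.75e-09). Gene-level values also count transcripts that lack only the deleted exons. The 5 CD4 T cell markers summed to between 1159 and 1687 TPM in every library. The 4 TH17 markers summed to 607.5 to 645.1 TPM with Srci1, to 39.12 to 42.24 TPM in STAT3 KO and to 3864 to 4016 TPM in wild-type TH17 cells with DMSO, so the first 2 groups are TH17 by culture condition more than by these markers. The 4 Treg markers summed to 1530 to 1623 TPM in Treg cells with Srci1 and to 1178 to 1187 TPM in Treg cells with DMSO, and in TH17 cells with Srci1 they summed to 1729 to 1918 TPM. That sum was 730.4 to 889.5 TPM in STAT3 KO cells and 930.9 to 1259 TPM in wild-type TH17 cells with DMSO, which overlapped Treg cells with DMSO, and Il2ra was its largest term in every group. The 4 genes differed in direction. Il2ra and Ctla4 were lower in every STAT3 KO library than in every wild-type TH17 library with DMSO, and Foxp3 and Ikzf2 were higher. Foxp3 had 192.02, 224.74 and 197.16 TPM in STAT3 KO cells and 193.95, 208.22 and 208.65 TPM in TH17 cells with Srci1. It had 12.23, 13.58 and 9.37 TPM in wild-type TH17 cells with DMSO. Treg cells had 256.72, 278.6 and 270.06 TPM of it with Srci1 and 130.97, 130.93 and 127.09 TPM with DMSO. Libraries of a group correlated at 0.977 to 0.986 across genes. Replicate 3 of wild-type TH17 with DMSO stood apart by transcript length: its genes with transcripts above 3983 bases had a median 0.38 below the other 2 libraries on the log2 scale, and its genes of up to 2243 bases had a median of 0.0. Pag1, Ptprc and Yes1 belong to the long genes, so their comparisons with wild-type TH17 cells in DMSO are also given without this library. Replicate 1 of that group and replicate 2 of STAT3 KO stood 0.26 and 0.25 above the other libraries of their groups in long genes. The median log2 fold change of long genes was 0.36 and that of short genes 0.07 with Srci1 in TH17 cells, 0.16 and 0.09 in STAT3 KO, 0.15 and 0.06 with Srci1 in Treg cells, and 0.31 and 0.06 in Treg against TH17 cells with DMSO. The part of transcript length in the values below was not tested.

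**Figure D1:**
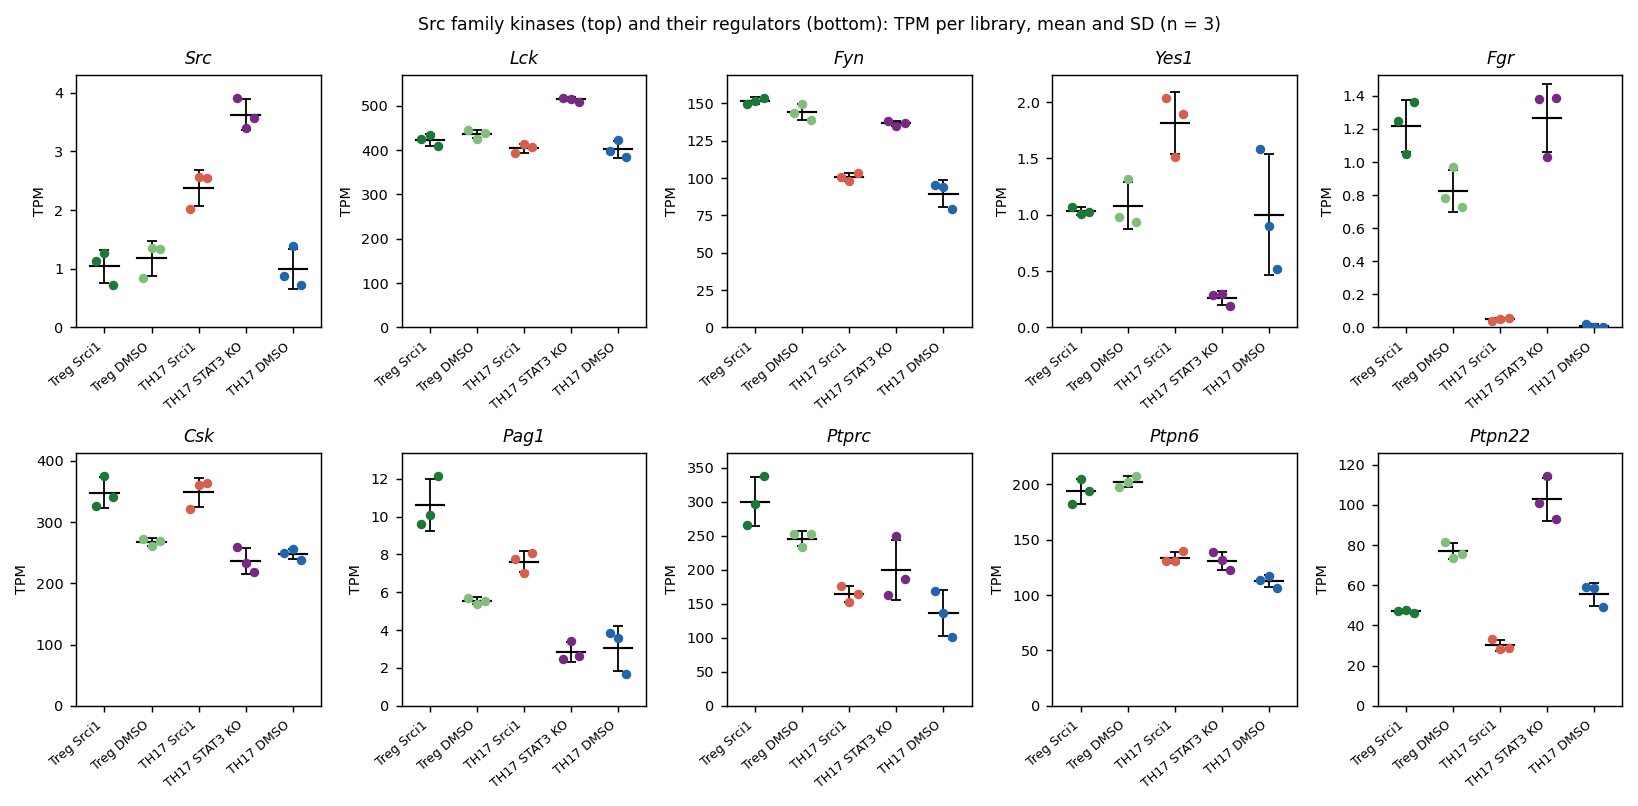
TPM of each gene (vertical axis, linear, from 0) in the 15 libraries, with kinases in the upper row and regulators in the lower row. Points are libraries, horizontal lines are means and bars are SD (n = 3 per group). Src is highest in STAT3 KO libraries at 3.40 to 3.92 TPM, and Ptpn22 runs from about 30 TPM in TH17 cells with Srci1 to about 103 TPM in STAT3 KO cells.

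Lck and Fyn made up nearly all kinase message, in every group. Lck held 73.2% ± 0.757 of the summed TPM of the 5 kinases in Treg cells with Srci1, 74.7% ± 1.08 in Treg cells with DMSO, 79.3% ± 0.666 in TH17 cells with Srci1, 78.4% ± 0.265 in STAT3 KO cells and 81.5% ± 1.2 in wild-type TH17 cells with DMSO (SD, n = 3 each). Fyn held between 18.1% and 26.3% on average, and Src, Yes1 and Fgr each held less than 0.6% in every library. The summed level was 656.4 ± 5.49 TPM in STAT3 KO cells, against 493.7 ± 27.1 TPM in wild-type TH17 cells with DMSO, with the other 3 groups between them. Among the regulators, Csk, Ptprc and Ptpn6 averaged over 100 TPM in every group, Ptpn22 averaged 30.07 to 102.9 TPM, and Pag1 averaged 2.84 to 10.6 TPM.

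With Srci1, TH17 cells had more message of Src, of the inhibitory kinase Csk and of its anchor Pag1, and less of the phosphatase Ptpn22. Of the 10 genes, 6 were higher and 1 was lower (limma adjusted p under 0.05), while 40.9% of all tested genes were called, 33.8% as higher and 7.08% as lower. Src was 2.38-fold higher, Pag1 2.52-fold higher, Csk 1.41-fold higher and Ptpn22 1.85-fold lower in mean TPM. The median log2 fold change of the 10 genes was 0.27, beside 0.213 for all tested genes. After median-of-ratios scaling, which brings that all-gene median to -0.007, 50.2% of all called genes were higher instead of 82.7%, and 2 of the 10 genes were higher (Src and Pag1) and 2 lower (Ptpn22 and Lck). Of the 12800 tested genes, 2125 were higher and 2112 lower after that scaling.

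Loss of STAT3 went with more message of 4 kinases and of 3 phosphatases. Against wild-type TH17 cells, 7 of the 10 genes were higher and 1 was lower, where 49.7% of all tested genes were called, 30.9% as higher and 18.9% as lower. Src was 3.64-fold higher, Ptpn22 1.85-fold, Fyn 1.52-fold and Lck 1.28-fold, and Yes1 was 3.85-fold lower. The Yes1 fold rests on a mean of 0.26 TPM in STAT3 KO cells, below the 1 TPM used as a filter. The median log2 fold change of the 10 genes was 0.46, beside 0.129 for all tested genes. Csk and Pag1 were not called. Of all called genes 62.1% were higher, and 50.3% after median-of-ratios scaling, where Ptpn6 was the only one of the 8 genes to lose its call.

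In Treg cells the genes past the threshold with Srci1 were all regulators. Csk and Pag1 were higher and Ptpn22 was lower, so 2 of the 10 genes were called higher and 1 lower, against 17.1% and 10% of all tested genes, or 27.2% called in all. These shares lie near the background, so the count itself says nothing of the 10 genes as a group. No kinase passed the test, with log2 fold changes between -0.10 (Src) and 0.28 (Fgr) and a median of 0.02 over the 10 genes, beside 0.114 for all tested genes. Fgr had an unadjusted limma p of 0.0411 (adjusted p = 0.111). Of all called genes 63% were higher, and 43.7% after median-of-ratios scaling.

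Treg cells with DMSO had more Fyn, Fgr, Pag1, Ptprc, Ptpn6 and Ptpn22 message than TH17 cells with DMSO. With Lck, which was called by a narrow margin, 7 of the 10 genes were higher and 0 lower. Of all tested genes 44.8% were called, 32.3% as higher and 12.5% as lower. Src, Yes1 and Csk were not called, with unadjusted limma p of 0.438, 0.628 and 0.148. Ptprc was 1.81-fold, Ptpn6 1.80-fold and Fyn 1.61-fold higher in mean TPM. The median was 0.57 for the 10 genes and 0.181 for all tested genes. Of all called genes 72% were higher, and 49.2% after median-of-ratios scaling, where the other 6 genes kept their calls.

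The Srci1 effect on Src and Ptpn6 was larger in TH17 than in Treg cells, by calls that did not hold in every setting. Of the 10 genes, 2 were called higher and 0 lower, where 14.2% of all tested genes were called, 11.3% as higher and 2.95% as lower. Yes1 was not called, with an unadjusted limma p of 0.0427 (adjusted p = 0.161). No share over all genes was taken at an unadjusted threshold, so no count is given there. Of all called genes 79.2% were higher, and 61.6% after median-of-ratios scaling. Each of the 2 calls ended in 6 of the 15 fits that left out a library, median-of-ratios scaling gave 1 gene higher and 1 lower, and quantile normalization gave 0 higher. Over the 12800 tested genes these settings gave 1137 and 1099 higher and 710 and 827 lower. The comparisons that involve TH17 cells with DMSO share the same 3 wild-type libraries, so they are not independent of one another. In cultures measured in bulk, fewer cells of a type and less RNA per cell cannot be told apart. The labels do not say if replicates are different mice or wells, so each p-value rests on spread between libraries that may be purely technical.

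**Figure D2:**
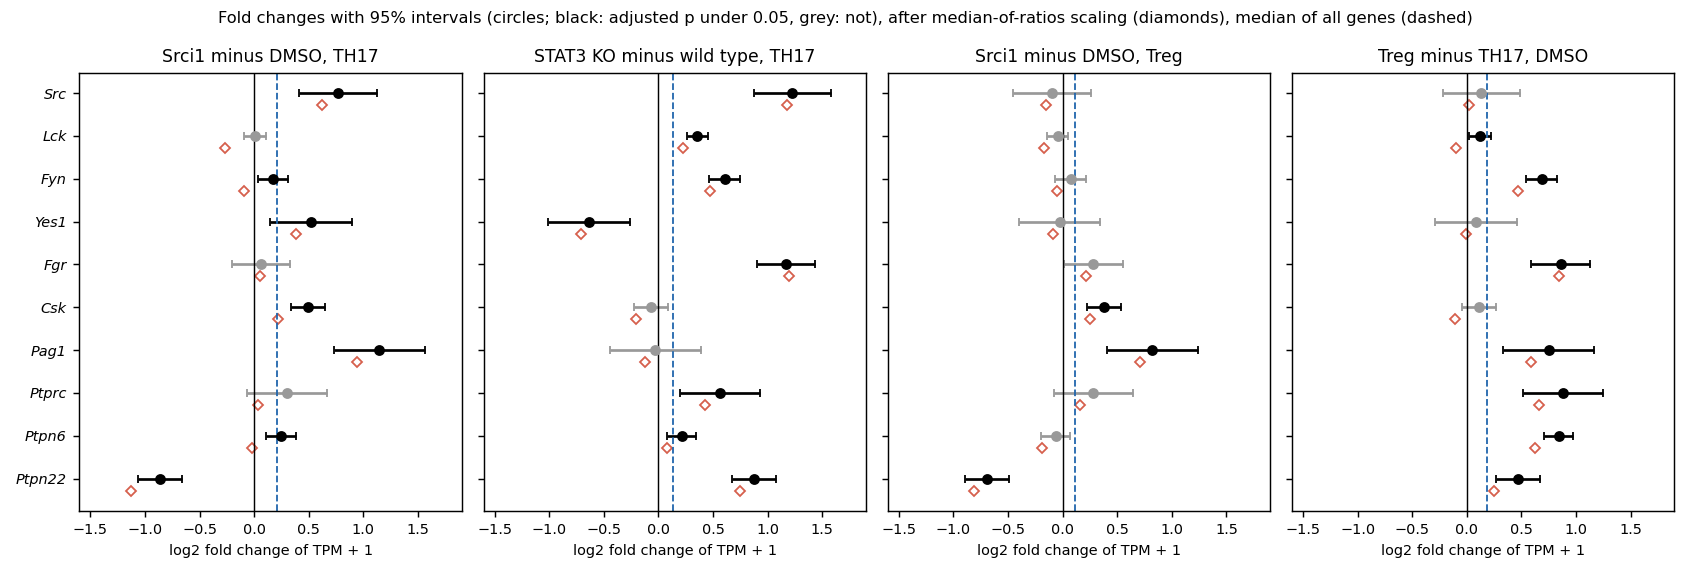
Log2 fold change of TPM + 1 (horizontal axis) for each gene in 4 comparisons, with circles for the fitted value and bars for its 95% interval, black where the limma adjusted p is under 0.05 and grey where it is not. Diamonds are values after median-of-ratios scaling, the dashed line is the median of all tested genes, and the groups named first in each panel title are higher to the right of 0. Ptpn22 lies left of 0 with Srci1 in both cell types (-0.86 and -0.69) and right of 0 in STAT3 KO cells (0.88), while Fyn and Ptpn6 lie close to the dashed line with Srci1 in TH17 cells.

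Lck (chromosome 4, 129548344 to 129573641, minus strand, GRCm38), which binds the CD4 coreceptor and phosphorylates the receptor's CD3 and zeta chains, had 393.04, 412.64 and 406.01 TPM in TH17 cells with Srci1, against 398.38, 422.95 and 384.82 TPM with DMSO. The libraries overlapped, with a log2 fold change of 0.01 (95% interval -0.09 to 0.11, limma adjusted p = 0.917). That direction depended on the scaling: it was -0.263 after median-of-ratios scaling (limma adjusted p = 0.00743), and quantile normalization gave -0.125 (adjusted p = 0.0496). In STAT3 KO cells Lck stood at 518.31, 516.11 and 509.15 TPM, and every one of these libraries lay above every wild-type TH17 library. The increase was 0.36 on the log2 scale (SE 0.0457, limma adjusted p = 1.8e-05), and it kept its call under every alternative run. In Treg cells Lck stood at 424.69, 433.90 and 409.16 TPM with Srci1, against 445.50, 425.83 and 437.48 TPM with DMSO, which overlapped (log2 fold change -0.05, limma adjusted p = 0.488). The Treg level in DMSO exceeded the TH17 level in DMSO by 0.12 on the log2 scale (limma adjusted p = 0.0489), which turned to -0.099 after median-of-ratios scaling and ended as a call after quantile normalization (adjusted p = 0.469). It passed in only 1 of the 15 fits that left out a library, the one without TH17 replicate 2 with DMSO (limma adjusted p = 0.021); the others gave up to 0.149.

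Fyn (chromosome 10, 39368855 to 39565381, plus strand), the other main kinase of the receptor complex, was higher in Treg than in TH17 cells. It had 143.93, 149.72 and 139.15 TPM in Treg cells with DMSO, against 95.56, 94.06 and 79.32 TPM in TH17 cells with DMSO. The lowest Treg library lay well above the highest TH17 library (log2 fold change 0.68, SE 0.0654, limma adjusted p = 1.52e-06). STAT3 KO cells had 138.32, 134.74 and 137.03 TPM, close to the Treg libraries and above all wild-type TH17 libraries (log2 fold change 0.61, limma adjusted p = 3.27e-06). Srci1 gave 100.94, 98.20 and 103.51 TPM in TH17 cells, a log2 change of 0.17 against DMSO (limma adjusted p = 0.0486) that turned to -0.095 after median-of-ratios scaling and to -0.030 after quantile normalization. Leaving out a library ended the Fyn call in 13 of 15 fits, all but those without DMSO replicate 1 or 2, and without DMSO replicate 3 the value was 0.088 (limma adjusted p = 0.182). In Treg cells Srci1 gave 149.78, 151.86 and 153.97 TPM, which did not pass the test (log2 fold change 0.07, limma adjusted p = 0.431).

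Src (chromosome 2, 157418444 to 157471862, plus strand), the kinase that names the family, was a low-level message in every group. TH17 cells had 2.02, 2.56 and 2.54 TPM with Srci1 and 3.92, 3.40 and 3.57 TPM in STAT3 KO, against 0.87, 1.39 and 0.73 TPM in wild-type cells with DMSO. The 3 groups did not overlap, and STAT3 KO was the highest. The log2 fold change of TPM + 1, which understates the change of a gene this low, was 0.77 with Srci1 (SE 0.164, limma adjusted p = 0.0024) and 1.23 in STAT3 KO (SE 0.164, adjusted p = 2.73e-05). Treg cells had 1.13, 1.27 and 0.72 TPM with Srci1, against 0.84, 1.36 and 1.34 TPM with DMSO. These overlapped each other and the wild-type TH17 libraries in DMSO (limma adjusted p = 0.702 for Srci1 in Treg cells and 0.549 for Treg against TH17). The Srci1 effect on Src was larger in TH17 than in Treg cells by 0.86 on the log2 scale (SE 0.232, limma adjusted p = 0.0246). This difference ended as a call after quantile normalization (limma adjusted p = 0.0681) and without replicate 3 of wild-type TH17 with DMSO (0.0528), replicate 2 or 3 of TH17 with Srci1 (0.0565 and 0.0591), replicate 2 or 3 of Treg with DMSO (0.0617 and 0.0607) or replicate 3 of Treg with Srci1 (0.0617).

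Yes1 (chromosome 5, 32611171 to 32687057, plus strand), a widely expressed member, was also low, and it differed most between Srci1 and loss of STAT3. It had 2.04, 1.51 and 1.89 TPM in TH17 cells with Srci1 and 0.29, 0.30 and 0.19 TPM in STAT3 KO cells, against 1.58, 0.90 and 0.52 TPM in wild-type TH17 cells with DMSO. The KO libraries lay below every other library, and the DMSO libraries spread 3-fold and overlapped those with Srci1. The KO change was -0.63 on the log2 scale (SE 0.174, limma adjusted p = 0.00772) and was -0.814 without DMSO replicate 3 (adjusted p = 0.00113). The Srci1 change of 0.52 (limma adjusted p = 0.0279) did not pass without DMSO replicate 3 (0.341, adjusted p = 0.131), nor without DMSO replicate 2 (0.0682) or Srci1 replicate 1 or 3 (0.0911 and 0.0737), nor after median-of-ratios scaling (0.0844). Treg cells had 1.07, 1.01 and 1.02 TPM with Srci1, against 0.98, 1.32 and 0.94 TPM with DMSO, and overlapped (limma adjusted p = 0.928). Treg against TH17 cells in DMSO gave 0.09 (limma adjusted p = 0.72), and -0.095 without TH17 replicate 3 (adjusted p = 0.688). Exons of Yes1 overlap a gene on the opposite strand, Gm10461, over 635 bases, and that gene reached at most 0.12 TPM.

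Fgr (chromosome 4, 132974095 to 133001910, plus strand) was near 0 in wild-type TH17 cells, with Srci1 as with DMSO, and present at about 1 TPM in the other 3 groups. STAT3 KO cells had 1.38, 1.03 and 1.39 TPM, against 0.02 TPM in replicate 1 of wild-type TH17 cells with DMSO and a listed 0 in the other 2 libraries. TH17 cells with Srci1 had 0.04, 0.05 and 0.06 TPM, which lay above DMSO but close to 0 (limma adjusted p = 0.728). No fold is given against a group with libraries listed at 0; the fitted log2 change of TPM + 1 in STAT3 KO was 1.17 (SE 0.124, limma adjusted p = 2.98e-06). Treg cells had 1.25, 1.05 and 1.36 TPM with Srci1, against 0.78, 0.97 and 0.73 TPM with DMSO, apart but not past the threshold (log2 fold change 0.28, limma adjusted p = 0.111, and 0.04 without the filter on low values). Treg cells with DMSO exceeded TH17 cells with DMSO at a fitted 0.86 (limma adjusted p = 8.05e-05).

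Markers of other cell types were read beside Fgr, since myeloid cells also use it. The 9 myeloid markers summed to 0.78 to 1.44 TPM in Treg cells with Srci1, 0.46 to 1.17 TPM in Treg cells with DMSO, 0.23 to 0.53 TPM in TH17 cells with Srci1, 3.09 to 3.84 TPM in STAT3 KO cells and 0.29 to 1.29 TPM in wild-type TH17 cells with DMSO. In STAT3 KO cells Itgam gave 2.46 TPM of that sum, and Cd14, Tyrobp and S100a8 were listed at 0 in all 3 libraries. Adgre1 had 1.2, 0.57 and 0.25 TPM there and was listed at 0 in every wild-type TH17 library with DMSO. Lyz2, Csf1r, Itgax and Fcer1g each reached at most 0.37 TPM in STAT3 KO cells. The 6 B cell markers summed to 13.34 to 13.86 TPM in STAT3 KO cells, where Cd79b averaged 8.10 TPM, and to at most 3.78 TPM in any other library. The 5 CD8 T and NK cell markers summed to 7.28 to 10.93 TPM in TH17 cells with Srci1, to 13.76 to 17.10 TPM in STAT3 KO cells and to 7.83 to 9.17 TPM in wild-type TH17 cells with DMSO. In Treg cells they summed to 17.81 to 19.72 TPM with Srci1 and to 19.67 to 19.98 TPM with DMSO. Eomes gave most of the Treg sums, with means of 13.41 TPM with Srci1 and 15.31 TPM with DMSO. Cd8b1 was the largest term in the TH17 groups and was lower in every Treg library than in every TH17 library. Cd8a had 4.68, 5.36 and 4.18 TPM in STAT3 KO cells and at most 1.23 TPM in any other library. Ncr1 was listed at 0 in every library, and Klrb1c reached at most 0.13 TPM. The part of other cell types in the Fgr levels was not tested.

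Csk (chromosome 9, 57626646 to 57653631, minus strand), the kinase that phosphorylates the tails shown above, was higher with Srci1 in both cell types. TH17 cells had 321.14, 360.32 and 363.71 TPM with Srci1, against 249.36, 255.18 and 238.76 TPM with DMSO, and Treg cells had 326.75, 375.42 and 341.57 TPM with Srci1, against 272.69, 260.49 and 269.63 TPM with DMSO. In both pairs every Srci1 library lay above every DMSO library. The log2 fold change was 0.49 in TH17 cells (SE 0.0723, limma adjusted p = 0.000162) and 0.38 in Treg cells (SE 0.0723, adjusted p = 0.00177). The TH17 call ended after median-of-ratios scaling (0.218, limma adjusted p = 0.0654), where the Treg call remained at an adjusted p of 0.0467. The 2 effects differed by 0.11 (95% interval -0.11 to 0.33, limma adjusted p = 0.52). In the STAT3 knockout Csk had 259.44, 232.58 and 218.23 TPM, overlapping wild-type TH17 cells with DMSO (log2 fold change -0.07, limma adjusted p = 0.46).

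Pag1 (chromosome 3, 9687479 to 9833679, minus strand), the membrane adaptor that anchors Csk, was also higher with Srci1 in both cell types, at far lower levels. TH17 cells had 7.78, 7.02 and 8.07 TPM with Srci1, against 3.87, 3.56 and 1.66 TPM with DMSO. Treg cells had 9.59, 10.10 and 12.16 TPM with Srci1, against 5.72, 5.36 and 5.56 TPM with DMSO. Both pairs were clear of overlap, with log2 fold changes of 1.14 in TH17 cells (SE 0.194, limma adjusted p = 0.000447) and 0.82 in Treg cells (SE 0.194, adjusted p = 0.00668). Without DMSO replicate 3, which was the lowest Pag1 library, the TH17 effect was 0.87 (limma adjusted p = 0.000393). Treg cells exceeded TH17 cells in DMSO by 0.75 (limma adjusted p = 0.00636), and by 0.474 without that library (adjusted p = 0.0139), a difference of more than 1.5 times in the log2 value. In a fit of these 2 groups alone that call ended (limma adjusted p = 0.0556). Pag1 stood at 2.48, 3.43 and 2.62 TPM in STAT3 KO cells and overlapped wild-type TH17 cells (log2 fold change -0.03, limma adjusted p = 0.92, and -0.302 with adjusted p = 0.0834 without wild-type replicate 3).

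Ptprc (chromosome 1, 138062861 to 138175708, minus strand), which encodes CD45, separated Treg from TH17 cells. Treg cells with DMSO had 252.06, 232.93 and 252.26 TPM, against 169.56, 136.81 and 101.50 TPM in TH17 cells with DMSO, without overlap (log2 fold change 0.88, SE 0.17, limma adjusted p = 0.000877). Without TH17 replicate 3 the difference was 0.686 (limma adjusted p = 0.00354). Srci1 libraries held 265.97, 296.72 and 338.40 TPM in Treg cells and 176.22, 152.74 and 164.54 TPM in TH17 cells, and neither passed the test against DMSO (limma adjusted p = 0.238 and 0.177). The TH17 effect of 0.30 was 0.108 without DMSO replicate 3 (limma adjusted p = 0.637), and it passed without DMSO replicate 1 (0.475, adjusted p = 0.0327). STAT3 KO cells had 163.57, 249.42 and 187.22 TPM, overlapping wild-type TH17 cells. Their log2 change of 0.56 (limma adjusted p = 0.0137) did not pass without KO replicate 2 (adjusted p = 0.0722) or without wild-type replicate 3 (0.369, adjusted p = 0.0666).

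Ptpn6 (chromosome 6, 124720707 to 124738714, minus strand) also followed the culture. It had 197.70, 202.21 and 207.76 TPM in Treg cells with DMSO, against 114.04, 117.42 and 106.78 TPM in TH17 cells with DMSO, with the libraries far apart (log2 fold change 0.84, SE 0.0625, limma adjusted p = 1.19e-07). TH17 cells had 130.86, 131.04 and 139.91 TPM with Srci1 and 138.60, 131.67 and 122.41 TPM in STAT3 KO, each above all wild-type DMSO libraries. Both changes were small: 0.25 with Srci1 (limma adjusted p = 0.00664), which turned to -0.022 after median-of-ratios scaling, and 0.21 in STAT3 KO (adjusted p = 0.0116), which was 0.080 after that scaling (adjusted p = 0.333). The KO call also ended without KO replicate 1 (limma adjusted p = 0.0526) and in a fit restricted to these 2 groups (0.0713). In Treg cells Ptpn6 was 182.60, 204.83 and 194.01 TPM with Srci1, overlapping DMSO (limma adjusted p = 0.475), and the Srci1 effect was larger in TH17 than in Treg cells by 0.31 (SE 0.0883, adjusted p = 0.0317). That difference did not pass after median-of-ratios scaling (0.167, limma adjusted p = 0.265), after quantile normalization (adjusted p = 0.0513) or without TH17 replicate 3 with DMSO (0.0576), TH17 replicate 3 with Srci1 (0.0832), Treg replicate 2 or 3 with DMSO (0.0628 and 0.0763) or Treg replicate 1 or 3 with Srci1 (0.0866 and 0.0598). Exons of Ptpn6 overlap a gene on the opposite strand, Gm20531, over 195 bases, and that gene reached at most 0.65 TPM.

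Ptpn22 (chromosome 3, 103859795 to 103912247, plus strand), the Csk-binding phosphatase that acts on Lck and Fyn, had the widest range of the 10 genes, 1.74 between its highest and lowest group mean of log2(TPM + 1). As a fold of mean TPM, where the added 1 does not damp low genes, Src, Pag1, Yes1 and Fgr ranged more widely. STAT3 KO cells had 100.96, 114.44 and 93.20 TPM, against 59.03, 58.54 and 49.02 TPM in wild-type TH17 cells with DMSO. Srci1 had the opposite direction in the same culture, with 33.29, 28.39 and 28.52 TPM. None of these 3 groups overlapped. The log2 fold change against DMSO was 0.88 in STAT3 KO (SE 0.0935, limma adjusted p = 2.95e-06) and -0.86 with Srci1 (SE 0.0935, adjusted p = 1.15e-05). In Treg cells it was 47.06, 47.72 and 46.41 TPM with Srci1, against 81.39, 73.74 and 75.35 TPM with DMSO (log2 fold change -0.69, SE 0.0935, limma adjusted p = 0.00011). The Srci1 effects in TH17 and Treg cells differed by -0.17 (95% interval -0.45 to 0.12, limma adjusted p = 0.449), and by -0.312 after median-of-ratios scaling, where it passed the test (adjusted p = 0.0295). Treg cells exceeded TH17 cells in DMSO by 0.46 (limma adjusted p = 0.00118), and by 0.251 after median-of-ratios scaling (adjusted p = 0.0049). All of the Ptpn22 calls against DMSO and between cell types held under every alternative run.

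The promoters of these genes were searched for the STAT-type motif TTCNNNGAA, which is its own reverse complement, so that both strands were covered in a single pass and no other motif was searched. RefSeq windows (GRCm38.p6) of 250 bases before to 50 after a start site were held for 9 of the 10 genes, 13 windows in all, without Pag1. Only 1 of the 13 windows had the motif, at the downstream of the 2 Ptpn22 start sites, while 8.3% of 32851 promoter windows of that length had it. That window, chr3:103860027-103860326 on the plus strand, is shown because Ptpn22 was the regulator that moved in opposite directions with Srci1 and with loss of STAT3. The motif, in capitals, begins at -232 from the start site.
Ptpn22: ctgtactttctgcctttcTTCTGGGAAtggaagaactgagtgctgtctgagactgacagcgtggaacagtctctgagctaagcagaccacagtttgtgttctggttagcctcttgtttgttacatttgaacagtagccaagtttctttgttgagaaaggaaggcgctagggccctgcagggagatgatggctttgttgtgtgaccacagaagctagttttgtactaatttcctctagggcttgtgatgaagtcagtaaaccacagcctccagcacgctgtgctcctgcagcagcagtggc
A match describes the letters only, and whether STAT3 binds there was not measured.

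Set against STAT3 KO cells directly, TH17 cells with Srci1 had more of the inhibitory pair Csk and Pag1 and less of most kinases and of Ptpn22. Of the 10 genes, 3 were higher with Srci1 and 5 were lower, where 49.1% of all tested genes were called, 30.6% as higher and 18.4% as lower. Ptpn22 was 3.42-fold lower with Srci1 than in STAT3 KO (log2 fold change -1.74, SE 0.0935, limma adjusted p = 2.42e-09). Fgr was lower as well (-1.11 on the TPM + 1 scale, limma adjusted p = 5.48e-06). It averaged 0.05 TPM with Srci1 and 1.27 TPM in STAT3 KO, and no fold is given for a level this close to 0. Lck (-0.35, limma adjusted p = 2.39e-05), Fyn (-0.43, adjusted p = 8.6e-05) and Src (-0.46, adjusted p = 0.0326) were lower as well. The Src difference did not pass with a pseudocount of 0.1 (limma adjusted p = 0.096) or without Srci1 replicate 1 or 3 (0.114 and 0.0512) or KO replicate 1 or 3 (0.0947 and 0.0643). Yes1 was 6.97-fold higher with Srci1 (log2 fold change 1.16, limma adjusted p = 8.55e-05), a fold that rests on a mean of only 0.26 TPM in STAT3 KO. Pag1 was higher by 1.17 (limma adjusted p = 0.000194) and Csk by 0.56 (adjusted p = 2.21e-05). Ptprc and Ptpn6 were not called, at -0.26 (95% interval -0.63 to 0.11) and 0.03 (-0.10 to 0.17). After median-of-ratios scaling Ptprc was lower with Srci1 as well (-0.397, limma adjusted p = 0.0192), and under quantile normalization both Ptprc (-0.455, adjusted p = 0.0324) and Ptpn6 (-0.153, adjusted p = 0.0291) were lower.

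Ratios of these genes within a library do not depend on how libraries are scaled, and they are given as descriptions with no test. The Csk to Lck ratio was 0.823 ± 0.0491 in Treg cells with Srci1, against 0.613 ± 0.00231 with DMSO. In TH17 cells it was 0.862 ± 0.0406 with Srci1 and 0.460 ± 0.0369 in STAT3 KO, against 0.616 ± 0.0119 in wild-type cells with DMSO (SD, n = 3 each). Srci1 libraries were thus above and STAT3 KO libraries below all DMSO libraries. The Fyn to Lck ratio was 0.360 ± 0.0142 with Srci1 and 0.331 ± 0.0184 with DMSO in Treg cells, and 0.250 ± 0.0104 with Srci1, 0.266 ± 0.00416 in STAT3 KO and 0.223 ± 0.0170 with DMSO in TH17 cells. All 6 Treg libraries exceeded all 9 TH17 libraries. The Ptpn22 to Csk ratio, added after the values were seen, was 0.136 ± 0.0085 with Srci1 and 0.287 ± 0.0100 with DMSO in Treg cells, and 0.0871 ± 0.0147 with Srci1, 0.436 ± 0.0521 in STAT3 KO and 0.224 ± 0.0167 with DMSO in TH17 cells, with no overlap between any of the 5 groups. A ratio shows unequal levels of a pair of genes and not which of them changed.

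**Figure D3:**
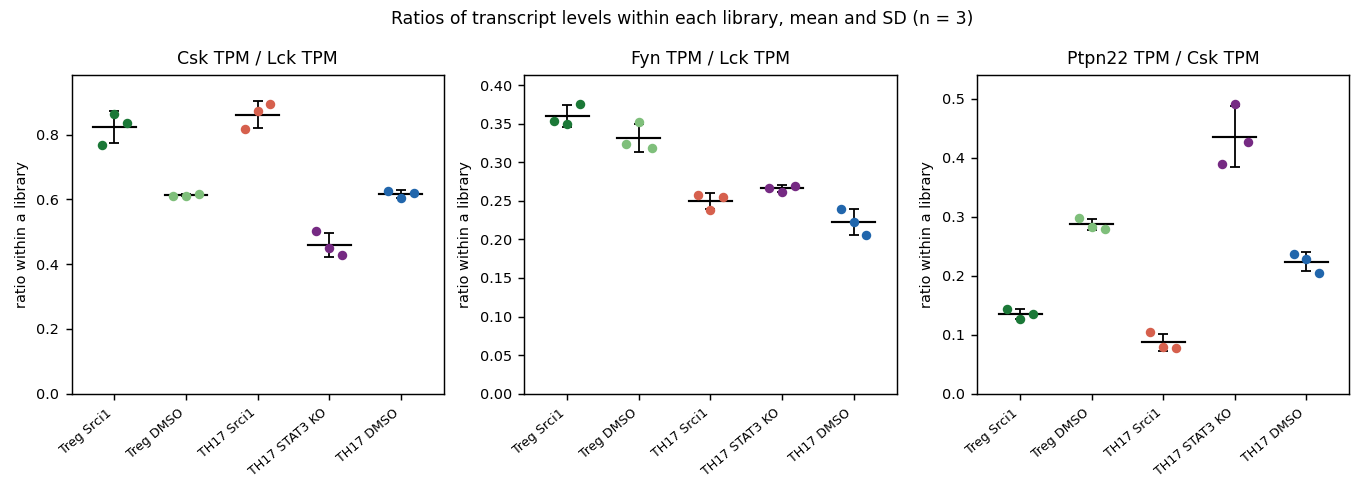
Ratios of TPM within each library for Csk to Lck, Fyn to Lck and Ptpn22 to Csk (vertical axes, linear, from 0). Points are libraries, lines are means and bars are SD (n = 3 per group). Csk to Lck is highest in the Srci1 groups of both cell types (0.823 and 0.862) and lowest in STAT3 KO cells (0.460), and Ptpn22 to Csk has the reverse order.

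The genes nearest to Src and to Ptpn22 in pattern were found over the 5 group means on the log2 scale, each centred on its own mean, by the root mean square difference. For Src these were Dyrk1b (0.067), Arhgap39 (0.096) and Tlr9 (0.117). Dyrk1b averaged 8.64 TPM in TH17 cells with Srci1 and 14.32 TPM in STAT3 KO, against 5.05 TPM in wild-type TH17 cells with DMSO, with 5.27 and 5.69 TPM in Treg cells with Srci1 and with DMSO. For Ptpn22 they were Tmem191c (0.122), A430093F15Rik (0.160) and Akr1e1 (0.162). Akr1e1 averaged 4.78 TPM in TH17 cells with Srci1 and 14.89 TPM in STAT3 KO cells, against 9.70 TPM in wild-type TH17 cells with DMSO.

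Other kinases related to Src were nearly silent. Frk was listed at 0 in every library, and Lyn averaged at most 0.887 TPM. Blk, a B cell kinase, averaged 0.44 TPM in STAT3 KO cells and at most 0.0733 TPM elsewhere, and the B cell marker sums given above were highest in the same libraries. None of these 3 passed the filter on low values. Matk, a relative of Csk that also phosphorylates the tails of Src family kinases, was lower in each comparison with DMSO: it averaged 1.60 ± 0.236 TPM in Treg cells with Srci1, against 7.47 ± 0.408 TPM with DMSO (log2 fold change -1.71, limma adjusted p = 2.16e-07). In TH17 cells it averaged 7.24 ± 0.821 TPM with Srci1 and 11.37 ± 1.14 TPM in STAT3 KO, against 18.98 ± 1.34 TPM in wild-type cells with DMSO (log2 fold changes -1.28 and -0.69, limma adjusted p = 2.28e-06 and 0.000206). The direction of Matk was thus opposite to that of Csk with Srci1 in both cell types.

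Of 12 other phosphatases of the pathway, 6 were higher and 1 lower in TH17 cells with Srci1, 6 higher and 2 lower in STAT3 KO, 4 higher and 1 lower with Srci1 in Treg cells, and 8 higher and 1 lower in Treg against TH17 cells with DMSO. Over all tested genes the shares higher and lower were 33.8% and 7.08%, 30.9% and 18.9%, 17.1% and 10%, and 32.3% and 12.5% in these 4 comparisons. The median log2 fold changes of the phosphatases were 0.30, 0.32, 0.28 and 0.39 in that order. After median-of-ratios scaling the counts were 2 and 3, 4 and 3, 3 and 2, and 5 and 3, so the surplus of higher calls depended on the scaling. Over the 12800 tested genes that scaling gave 2125 higher and 2112 lower, 3288 and 3245, 1368 and 1763, and 2701 and 2790. Ubash3a, a negative regulator of receptor signalling, was higher in the first 3 comparisons: it averaged 59.0 ± 2.86 TPM with Srci1 and 70.71 ± 4.81 TPM in STAT3 KO, against 33.6 ± 2.71 TPM in wild-type TH17 cells with DMSO (limma adjusted p = 4.81e-06 and 7.42e-08). Treg cells had 76.4 ± 5.09 TPM of it with Srci1, against 47.76 ± 1.78 TPM with DMSO (log2 fold change 0.67, limma adjusted p = 3.44e-05). Its relative Ubash3b, a phosphatase that acts on Zap70, averaged 24.37 ± 3.14 TPM in Treg cells with Srci1, against 53.58 ± 3.18 TPM with DMSO (-1.11, limma adjusted p = 0.000233). In STAT3 KO cells Ubash3b averaged 36.36 ± 4.32 TPM, against 13.65 ± 3.37 TPM in wild-type TH17 cells (1.37, limma adjusted p = 8.99e-06). Ptpn2, which dephosphorylates Lck, Fyn and STAT proteins, averaged 54.79 ± 5.36 TPM with Srci1 and 42.62 ± 1.85 TPM in STAT3 KO, against 70.16 ± 2.58 TPM in wild-type TH17 cells with DMSO (log2 fold changes -0.35 and -0.71, limma adjusted p = 0.00254 and 3.57e-06). With Srci1 in Treg cells it was called higher (0.30, limma adjusted p = 0.0112), but not after median-of-ratios scaling (0.18, adjusted p = 0.128) or quantile normalization (0.20, adjusted p = 0.0545), and the Srci1 effect differed between TH17 and Treg cells by -0.65 (limma adjusted p = 0.00122).

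Among 16 adaptors, scaffolds and ubiquitin ligases, 3 were higher and 5 lower in TH17 cells with Srci1, 7 higher and 6 lower in STAT3 KO, 3 higher and 6 lower with Srci1 in Treg cells, and 6 higher and 7 lower in Treg against TH17 cells. The shares over all tested genes are those given for the phosphatases. After median-of-ratios scaling the counts were 3 and 10, 6 and 8, 2 and 6, and 4 and 7. The counts over all tested genes after that scaling are also those given for the phosphatases. Sla2, which helps to remove receptor complexes from the surface, averaged 12.03 ± 0.351 TPM with Srci1 and 10.79 ± 0.659 TPM in STAT3 KO, against 5.49 ± 0.572 TPM in wild-type TH17 cells (log2 fold changes 1.01 and 0.86). Lime1, an adaptor that binds Lck and Csk, averaged 61.38 ± 4.91 TPM in STAT3 KO, against 123.3 ± 3.95 TPM in wild-type TH17 cells (-1.0, limma adjusted p = 4.8e-08), and 53.33 ± 2.89 TPM in Treg cells with DMSO. Sit1 averaged 36.42 ± 0.521 TPM in Treg cells with Srci1, against 15.89 ± 0.445 TPM with DMSO (1.15, limma adjusted p = 6.79e-07), and its Srci1 effect in TH17 minus Treg cells was -0.98 (adjusted p = 0.000174). Cblb, a ubiquitin ligase that limits T cell activation, averaged 39.3 ± 0.909 TPM in Treg cells with Srci1, against 82.29 ± 2.06 TPM with DMSO (-1.05, limma adjusted p = 8.45e-05). Lax1, a transmembrane adaptor, averaged 26.58 ± 2.40 TPM in STAT3 KO cells, against 7.61 ± 0.853 TPM in wild-type TH17 cells (1.68, limma adjusted p = 8.27e-08).

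Of 14 receptors and substrates next to Lck and Fyn, 6 were higher and 4 lower in TH17 cells with Srci1, 6 higher and 3 lower in STAT3 KO, 2 higher and 5 lower with Srci1 in Treg cells, and 6 higher and 1 lower in Treg against TH17 cells. All tested genes gave 33.8% higher and 7.08% lower, 30.9% and 18.9%, 17.1% and 10%, and 32.3% and 12.5% in the same order. After median-of-ratios scaling the 14 genes gave 2 and 4, 2 and 4, 1 and 8, and 2 and 2. The 12800 tested genes then gave 2125 higher and 2112 lower, 3288 and 3245, 1368 and 1763, and 2701 and 2790. Cd2, an adhesion receptor whose tail binds Lck and Fyn, averaged 141.5 ± 9.66 TPM in STAT3 KO cells, against 1152 ± 65.1 TPM in wild-type TH17 cells (log2 fold change -3.02, limma adjusted p = 2.62e-13). Srci1 left Cd2 at 1226 ± 41.6 TPM in TH17 cells, a log2 value of 0.09 against DMSO. Cd3g and Cd3d, chains of the receptor complex that Lck phosphorylates, were lower with Srci1 and higher in STAT3 KO: Cd3g averaged 335.3 ± 6.95 TPM with Srci1 and 760.8 ± 45.2 TPM in STAT3 KO, against 539.5 ± 17.3 TPM in wild-type TH17 cells with DMSO (limma adjusted p = 6.74e-07 and 4.24e-06). The chains Cd3e and Cd247 were not called with Srci1 in TH17 cells (0.14 and 0.06, limma adjusted p = 0.12 and 0.353). Both were higher in STAT3 KO (1.0 and 0.22, limma adjusted p = 2.15e-08 and 0.00296). After median-of-ratios scaling only 2 of the 14 genes were called higher in STAT3 KO, so these chains did not all keep their calls. Quantile normalization gave 6 higher. Zap70, the kinase that binds the phosphorylated receptor chains, averaged 139.1 ± 4.80 TPM in Treg cells with Srci1, against 186.0 ± 1.85 TPM with DMSO (-0.42, limma adjusted p = 0.000257).

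**Figure D4:**
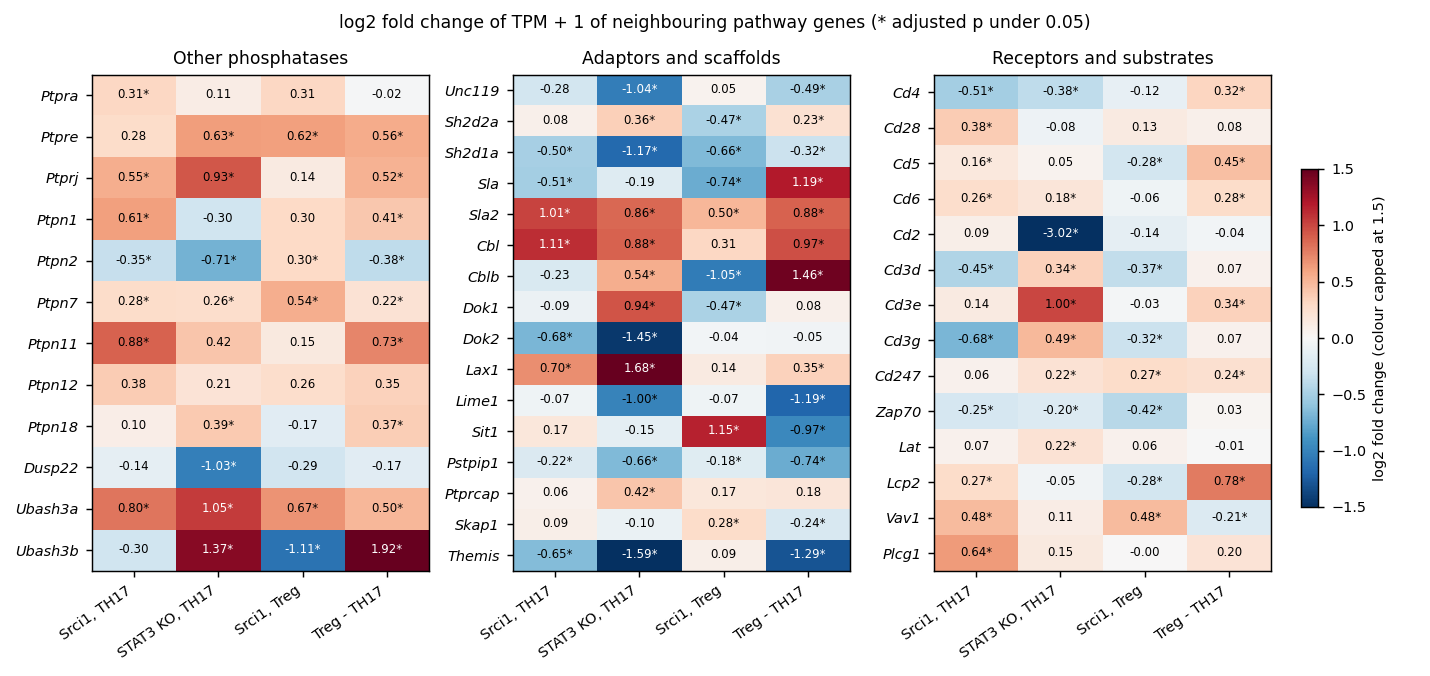
Log2 fold change of TPM + 1 for 12 phosphatases, 16 adaptors and scaffolds, and 14 receptors and substrates (rows) in 4 comparisons (columns), as numbers and as colour from blue (lower) to red (higher), with colour capped at 1.5 and an asterisk where the limma adjusted p is under 0.05. Ubash3a and Sla2 carry asterisks and positive values in all 4 columns, and Cd2 stands out at -3.02 in STAT3 KO.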

How the data were processed

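The authors deposited TPM values of 15 libraries. The submitters' processing notes name STAR 2.7.9a, RSEM 1.3.3 and build GRCm38. Not given in the sources used here were annotation, strand setting and filters. Reads of overlapping genes may therefore be shared. TPM is scaled to a fixed total per library, so the depth is unknown and no counting interval was computed.

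Values were put on the scale log2(TPM + 1). Of the genes, 12800 reached 1 TPM in 3 or more libraries, and limma 3.58.1 (R 4.3.3) fitted these with a variance trend in a single model of 5 group means (10 residual degrees of freedom, two-sided tests). A call needs a p under 0.05 after Benjamini-Hochberg adjustment over all genes tested, and intervals cover 95%. Tests were tried on simulated data. Groups came from the labels. There were 6 comparisons: STAT3 KO against wild type, Srci1 against DMSO in TH17 and in Treg cells, Treg against TH17, the difference of the Srci1 effects, and Srci1 against STAT3 KO.

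The 10 genes, the neighbouring lists and the markers were chosen with earlier results of these data known. Named were all 10 genes, Stat3, the 3 nearest patterns of Src and of the gene with the widest range, and from each list genes among the 3 with the smallest adjusted p in a comparison. Lyn, Blk and Frk were named as the untested rest of their list, and Cd3d, Cd3e and Cd247 beside Cd3g. Single markers were named beside the sums of their lists. A gene in each of 2 neighbouring lists is not reported here and is left out of their counts.

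Same-numbered libraries deviated together at correlations of -0.171 to 0.128, so numbers were not taken as pairs. Coordinates are 1-based, from GENCODE M21.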

Additional observations from a re-analysis of the deposited data

Results flagged for a closer look

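The Srci1 effect on Src differed between the cell types in the test of that difference. The log2 effect in TH17 cells minus that in Treg cells was 0.86 (limma adjusted p = 0.0246), from 0.77 in TH17 cells and -0.10 in Treg cells. Src libraries were apart in TH17 cells (2.02 to 2.56 TPM with Srci1, 0.73 to 1.39 TPM with DMSO) and overlapped in Treg cells (0.72 to 1.27 TPM with Srci1, 0.84 to 1.36 TPM with DMSO). The call ended after quantile normalization (limma adjusted p = 0.0681) and in 6 of 15 fits that left out a library.

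The Srci1 effect on Ptpn6 also differed between the cell types, by 0.31 (limma adjusted p = 0.0317), from 0.25 in TH17 cells and -0.06 in Treg cells. The median of this difference over all tested genes was 0.127. The Ptpn6 call ended after median-of-ratios scaling (0.167, limma adjusted p = 0.265), after quantile normalization (adjusted p = 0.0513) and in 6 of 15 fits that left out a library.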

How the results depend on the processing

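Over 7 other settings and 15 fits that each left out a library, the 10 genes gave 1302 values in the 6 comparisons. Of these, 1192 kept their direction and side of the threshold, 70 lost and 7 gained a call, and 33 changed direction, 4 of them for a called gene.

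Median-of-ratios scaling and quantile normalization, which removed the surplus of higher calls in 5 comparisons and reduced it in the difference of the Srci1 effects (61.6% and 57.1% of calls higher, against 79.2%), had most effect. With Srci1 in TH17 cells they gave 2 and 3 genes higher and 2 and 2 lower. With Srci1 in Treg cells quantile normalization gave 2 lower, as Ptpn6 passed (limma adjusted p = 0.0389). For the difference of the Srci1 effects the first gave 1 higher and 1 lower, and the second 0 higher. Directions turned in both with Srci1 in TH17 cells for Lck (-0.263 and -0.125) and Fyn (-0.095 and -0.030), for Yes1 between Treg and TH17 cells (-0.011 and -0.040), for Ptpn6 between Srci1 and STAT3 KO (-0.102 and -0.153), and in the difference of the Srci1 effects for Lck (-0.093 and -0.003), Fyn (-0.045 and -0.046) and Ptprc (-0.126 and -0.073). Under median-of-ratios scaling alone they turned for Ptpn6 with Srci1 in TH17 cells (-0.022), Fyn with Srci1 in Treg cells (-0.049), Lck and Csk between Treg and TH17 cells (-0.099 and -0.106), and Csk in the difference of the Srci1 effects (-0.033). Over all genes, median-of-ratios scaling and quantile normalization gave 2125 and 2159 higher and 2112 and 1973 lower with Srci1 in TH17 cells (4324 and 906 without them), and 2701 and 2710 higher and 2790 and 2739 lower between Treg and TH17 cells (4132 and 1605). The difference of the Srci1 effects had 710 and 827 lower (378), and Srci1 in Treg cells had 1368 higher with the first (2192). A fit of the Srci1 and DMSO TH17 libraries alone gave 2859 genes higher with Srci1.

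At 5 TPM, 10041 genes and 7 of the 10 members were tested, without Src, Yes1 and Fgr, which left 0 lower in STAT3 KO, 1 higher in the difference of the Srci1 effects and 3 lower between Srci1 and STAT3 KO. Leaving out a library gave 0 to 3 genes higher in the difference of the Srci1 effects, with 0 without TH17 DMSO replicate 3, TH17 Srci1 replicate 3, Treg DMSO replicate 2 or 3, or Treg Srci1 replicate 3, and 4 to 7 higher with Srci1 in TH17 cells. It turned uncalled values of Pag1 in STAT3 KO (-0.302 to 0.134), Ptpn6 between Srci1 and STAT3 KO (-0.013 to 0.076), Lck with Srci1 in TH17 cells (-0.024 to 0.044), Yes1 between Treg and TH17 cells (-0.095 to 0.287), Ptprc in the difference of the Srci1 effects (-0.175 to 0.193), and Yes1 (-0.076 to 0.053) and Src (-0.214 to 0.022) with Srci1 in Treg cells. The causes of these changes were not tested beyond the smaller number of genes or libraries that each setting leaves.

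The replicate number shared across groups did not pair the libraries. With it as a replicate block, the counts for Srci1 were 5 higher and 1 lower in TH17 cells and 2 and 1 in Treg cells, those for STAT3 KO 7 and 1, those for Treg against TH17 cells 6 and 0, those for the difference of the Srci1 effects 2 and 0, and those for Srci1 against STAT3 KO 3 and 5. The calls that ended were Fyn with Srci1 in TH17 cells (limma adjusted p = 0.0603) and Lck between Treg and TH17 cells (0.0563). Without counts, the depth behind low genes such as Src, Yes1 and Fgr is unknown.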
